A study of Mus musculus with 4 samples.

Results

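The genes described here are 34 markers of Kupffer cells and other macrophages, read in mouse liver RNA. They were taken by symbol from the platform annotation of the array. Each symbol had 1 probe set (a group of probes summarised to 1 value), so no choice between probe sets was needed, and 34 of the 22180 genes on the array were members. Of the 34, 32 had a mean log2 value at or above 3.47, the 40th percentile of all genes, and stayed among the 13308 genes kept for counts. Itgam and Ccr2 lay below it and are given by their values alone.

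Kupffer cells are the resident macrophages of the liver, which sit in the sinusoids and clear particles, bacteria, dying cells and iron-laden red cells from the blood. They carry a shared macrophage set of receptors and lysosomal enzymes, and a set of genes acquired in the liver niche, such as Clec4f and Vsig4. When resident cells are lost or the liver is overfed, blood monocytes can enter and take on macrophage genes, and some become lipid-associated macrophages that express Trem2 and Gpnmb.

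The study held 4 arrays of total liver RNA from C57Bl6 mice aged 16 weeks, 1 for each combination of genotype and diet. Knockout mice were labelled ALB Cre MyD88 lox/lox: the albumin promoter drives Cre in hepatocytes, so macrophages are not a target of the deletion. Wild-type mice were labelled MyD88 lox/lox, the same floxed allele with no Cre named. Each genotype was on a high-fat diet (60% fat) or a control diet (9.4% fat), and RNA of 4 to 5 mice chosen for RNA quality was pooled on each array. No group had a replicate, so the spread between mice was not measured and differences between 2 arrays carry no test. The design asks how diet and hepatocyte loss of Myd88, the adaptor of Toll-like and interleukin-1 receptors, bear on the liver transcriptome.

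Array medians lay between 3.53 and 3.56 on the log2 scale, and pairs of arrays correlated across probe sets with r between 0.985 and 0.990. Myd88 itself had log2 values of 6.23 and 5.91 in knockout livers on high-fat and control diet, against 6.44 and 6.10 in wild-type livers; whether its probes lie in the deleted part was not analysed here. Exocrine pancreas transcripts differed strongly between the arrays: the summed linear level of 12 of them was 7239 in knockout and 3107 in wild type on high-fat diet, and 3452 in knockout and 643 in wild type on control diet. Skeletal muscle transcripts stood out on the wild-type high-fat array, where 7 of them summed to 270, against 106 in knockout on high-fat diet, 114 in knockout on control diet and 122 in wild type on control diet. Their part in the macrophage marker values was not tested.

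**Figure D1:**
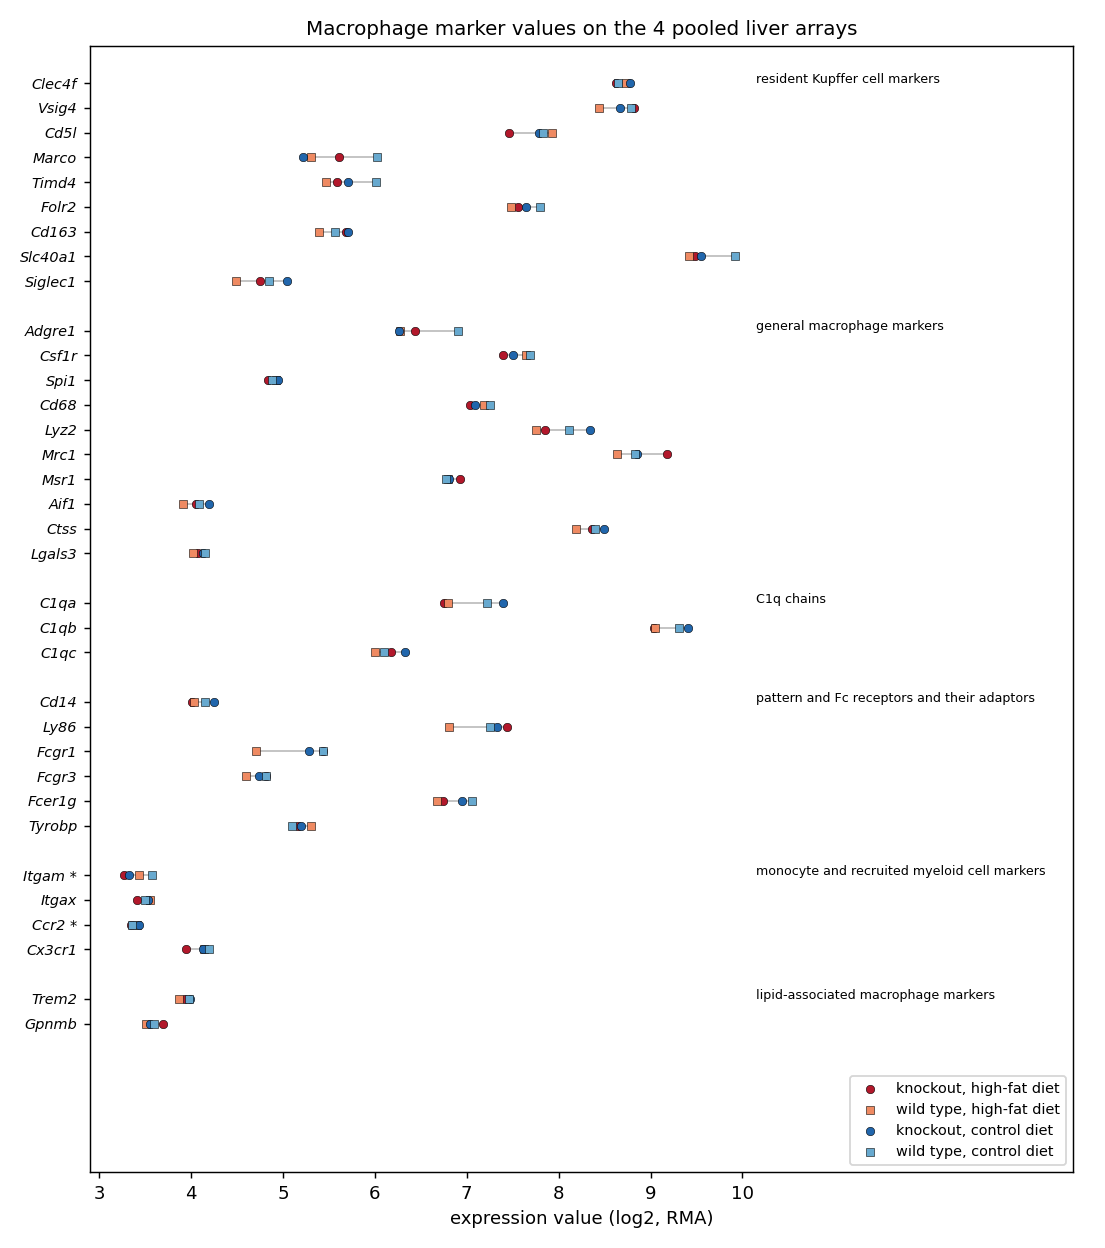
Log2 expression value (RMA) of each of the 34 markers on the 4 pooled liver arrays, 1 point per array, grouped by role; an asterisk marks the 2 genes below the filter on dim genes, and levels of different genes are not comparable. The 4 points of a gene span 0.08 (Ccr2) to 0.81 (Marco). The wild-type high-fat array is the lowest for 18 of the 32 kept markers, against 3746 of 13308 genes.

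In each genotype taken alone, most macrophage markers had lower values with the high-fat than with the control diet, by small amounts. None passed the test. In both genotypes together 18 of 32 markers were lower and 1 was higher, against 29.0% and 26.1% of all genes. The other 13 had opposite signs in the 2 genotypes, against 44.9% of all genes. In knockout livers, 23 of 32 markers were lower on high-fat than on control diet, against 47.7% of all genes, with a median log2 difference of -0.09 against 0.01 for all genes. In wild-type livers, 26 of 32 were lower, against 55% of all genes, with a median of -0.19 against -0.03. No marker reached 2-fold in either genotype, where 0.609% of all genes in knockout and 1.05% in wild type did so.

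A smaller threshold was therefore used as well: a log2 difference of 0.32, where 1 array is 25% above the other. It was chosen after the values were seen. In knockout, 4 markers (Cd5l, Lyz2, C1qa and C1qb) were past it on the lower side, against 8.59% of all genes, and 2 (Marco and Mrc1) were past it on the higher side, against 11.3%. After cyclic loess or median centring 1 marker was past it on the higher side and 4 on the lower. In wild type, 11 markers were lower by 0.32 or more, which is 34.4% of them against 10.9% of all genes, and 0 were higher, against 7.53%. The 11 were Vsig4, Marco, Timd4, Slc40a1, Siglec1, Adgre1, Lyz2, C1qa, Ly86, Fcgr1 and Fcer1g. After a cyclic loess normalisation between the arrays 7 of 32 markers were that much lower in wild type, against 8.72% of all genes.

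The 2 diet differences share no array. Both high-fat arrays lay below both control arrays for 13 of 32 markers, against 21.2% of all genes: Timd4, Folr2, Slc40a1, Siglec1, Lyz2, Aif1, Ctss, Lgals3, C1qa, C1qb, Cd14, Fcer1g and Trem2. Both high-fat arrays lay above both control arrays for 0 markers, against 19.1% of all genes. In limma's additive fit, whose error comes from how far the diet differences of the 2 genotypes disagree (1 residual degree of freedom) and from the spread shared over genes, 0 of 32 markers and 0% of all genes passed an adjusted p of 0.05 for diet. At an unadjusted p under 0.05 the fit held 4 markers (Siglec1, Lyz2, C1qa and C1qb, all lower on high-fat diet), which is 12.5% of them against 9.3% of all genes. In whole-tissue RNA, fewer macrophages and less marker RNA per macrophage cannot be told apart.

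**Figure D2:**
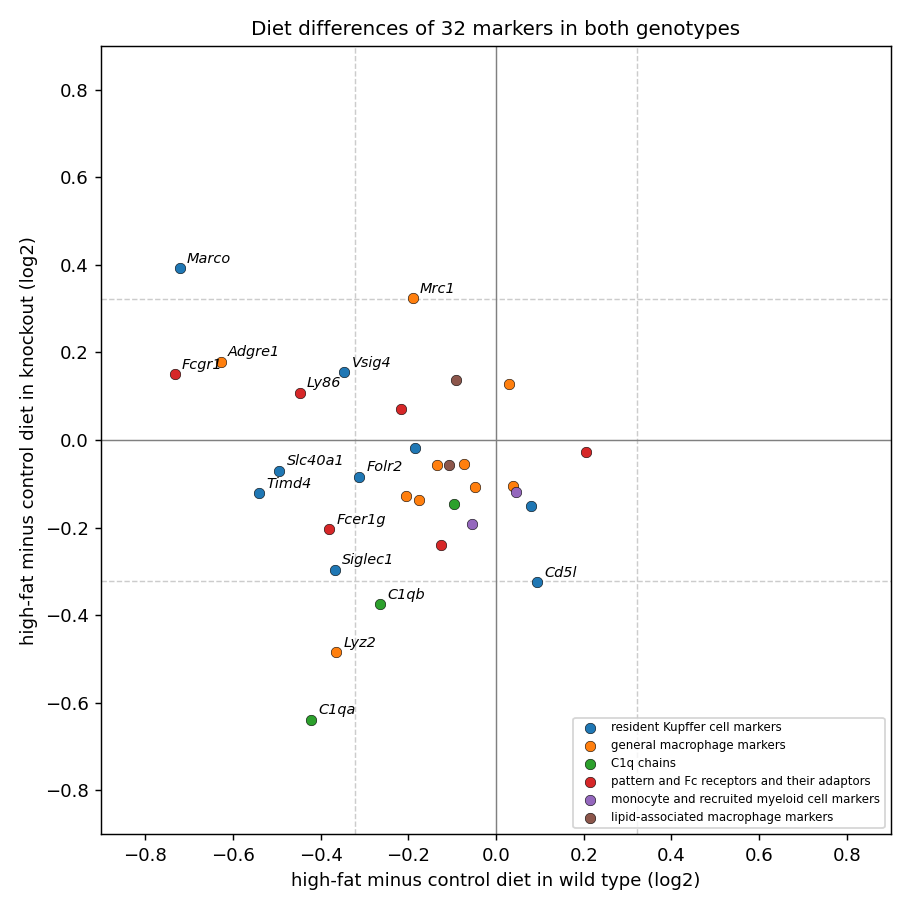
High-fat minus control diet difference (log2) of the 32 kept markers in knockout (vertical axis) against wild type (horizontal axis), coloured by role; dashed lines mark a log2 difference of 0.32. C1qa, C1qb, Lyz2 and Siglec1 lie low in both genotypes, while Marco, Fcgr1, Adgre1, Vsig4 and Ly86 are below 0 in wild type and above 0 in knockout.

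On high-fat diet most markers were higher in knockout than in wild type, by small amounts. On control diet about as many were lower as higher, and none passed the test. On both diets 10 of 32 markers were higher in knockout and 4 lower, against 25.3% and 24.6% of all genes. The other 18 had opposite signs on the 2 diets, against 50.1% of all genes. On high-fat diet, 11 of 32 markers were lower in knockout than in wild type, against 45.9% of all genes, with a median of 0.09 against 0.02 for all genes. On control diet, 15 of 32 were lower in knockout, against 53.3% of all genes, with a median of 0.02 against -0.02; this median lay between 0.01 after cyclic loess and 0.06 after median centring. No marker reached 2-fold on either diet, where 0.391% of all genes on high-fat diet and 0.503% on control diet did so.

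Past the threshold of 0.32, 4 markers (Vsig4, Mrc1, Ly86 and Fcgr1) were higher in knockout on high-fat diet, against 11.2% of all genes, and Cd5l alone was lower, against 6.79%. On control diet 3 markers (Marco, Slc40a1 and Adgre1) were lower in knockout, against 6.56% of all genes, and 0 were higher, against 4.98%. Both knockout arrays lay above both wild-type arrays for Cd163, Mrc1, Msr1, C1qc and Ly86, which is 15.6% of the 32 markers against 15.1% of all genes. They lay below them for Cd5l, Csf1r, Cd68 and Cx3cr1, 12.5% against 14.1%. Both shares were near those of all genes. Limma called 0 of 32 markers and 0% of all genes for genotype at an adjusted p of 0.05, and at an unadjusted p under 0.05 it held 0 markers, against 4.26% of all genes.

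**Figure D3:**
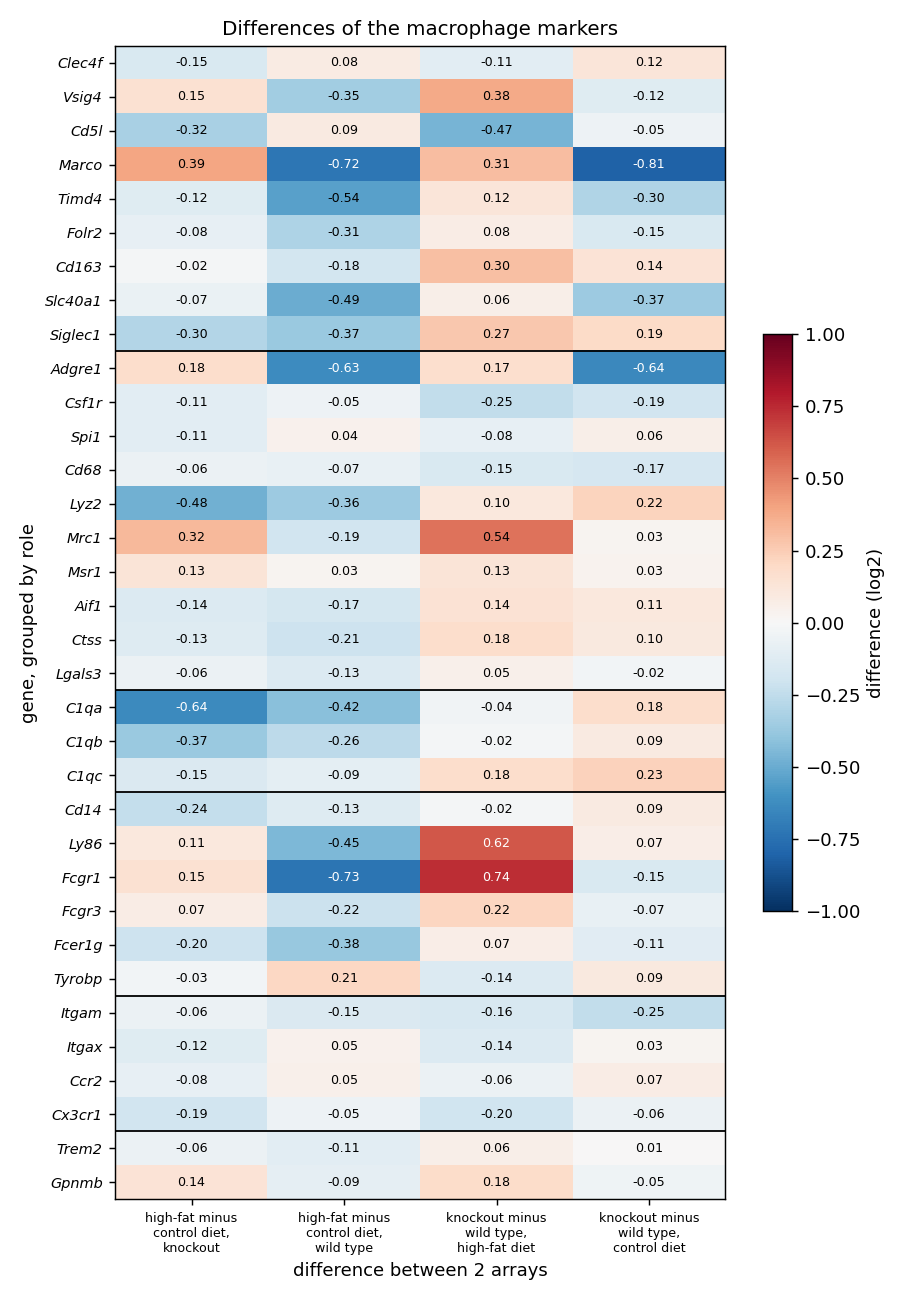
Log2 differences of the 34 markers between pairs of arrays, 1 row per gene grouped by role and 1 column per difference; red is higher and blue lower in the first-named group. The blue cells are most frequent in the second column (high-fat minus control diet in wild type), and the extremes are -0.81 for Marco (knockout minus wild type on control diet) and 0.74 for Fcgr1 (knockout minus wild type on high-fat diet).

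Among the 9 markers of resident Kupffer cells, the lectin gene Clec4f, whose expression in mouse is restricted to Kupffer cells, varied least. It had log2 values of 8.62 in knockout and 8.73 in wild type on high-fat diet, and of 8.77 in knockout and 8.65 in wild type on control diet, a range of 0.15. Vsig4, a complement receptor that captures bacteria from the blood, was at 8.82 in knockout and 8.44 in wild type on high-fat diet, and at 8.67 and 8.79 on control diet. Its wild-type high-fat value lay apart below the other 3. Cd5l, which encodes a secreted protein of macrophages that limits their apoptosis, was at 7.46 in knockout and 7.93 in wild type on high-fat diet, and at 7.79 and 7.83 on control diet. Here the knockout high-fat array was the low one, so the diet difference was -0.32 in knockout and 0.09 in wild type.

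Marco (probe set 17226327), a scavenger receptor for bacteria and particles, varied most of all 34 markers. Its log2 values were 5.61 in knockout and 5.30 in wild type on high-fat diet, and 5.22 in knockout and 6.02 in wild type on control diet. The wild-type control array was the highest and the knockout control array the lowest. The diet difference was 0.39 in knockout (1.31-fold higher) and -0.72 in wild type (1.65-fold lower), and the genotype difference was 0.31 on high-fat diet and -0.81 on control diet (1.75-fold lower in knockout). Limma's diet effect over both genotypes was -0.16 with a 95% interval from -0.82 to 0.49 (adjusted p 0.907).

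The wild-type control array was also the highest for Timd4, Slc40a1 and Folr2. Timd4, the phosphatidylserine receptor that marks long-lived Kupffer cells, was at 5.59 in knockout and 5.47 in wild type on high-fat diet, and at 5.71 and 6.01 on control diet. Slc40a1, the iron exporter ferroportin through which these cells return iron from red cells, was at 9.48 and 9.42 on high-fat diet, and at 9.55 and 9.92 on control diet. Folr2, a folate receptor of resident macrophages, was at 7.56 and 7.48 on high-fat diet, and at 7.64 and 7.79 on control diet. For these 3 genes the diet difference in wild type was -0.54, -0.49 and -0.31, and in knockout it lay between -0.12 and -0.07. The diet difference in wild type and the genotype difference on control diet share the wild-type control array and are not independent. That array was also the lowest for all 12 pancreas transcripts kept, whose part in these values was not tested.

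The scavenger receptor of haemoglobin, Cd163, was at 5.69 in knockout and 5.39 in wild type on high-fat diet, and at 5.71 and 5.57 on control diet. Both knockout values were the higher ones. Siglec1, the sialic acid binding adhesion receptor of tissue macrophages, was at 4.75 and 4.49 on high-fat diet, and at 5.05 and 4.85 on control diet. It was lower on high-fat diet and higher in knockout throughout, with a limma diet effect of -0.33 (95% interval -0.64 to -0.03, adjusted p 0.506).

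The 10 general macrophage markers had a median diet difference of -0.08 in knockout and -0.15 in wild type. Adgre1, the gene of the F4/80 antigen, was at 6.44 in knockout and 6.28 in wild type on high-fat diet, and at 6.26 and 6.90 on control diet. The wild-type control array stood above the other 3, and the genotype difference on control diet was -0.64. Csf1r, the receptor for the growth factor on which macrophages depend, was at 7.39 and 7.64 on high-fat diet, and at 7.50 and 7.69 on control diet. Its diet differences were -0.11 in knockout and -0.05 in wild type. Spi1, which encodes the myeloid transcription factor PU.1, had a range of 0.11 over the 4 arrays. Cd68, a lysosomal glycoprotein gene, was at 7.04 and 7.19 on high-fat diet, and at 7.09 and 7.26 on control diet. Its knockout values were lower by 0.15 on high-fat diet and 0.17 on control diet on the log2 scale.

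Lyz2 (probe set 17245223), the lysozyme gene of macrophages, had the clearest diet difference of this group. It was at 7.86 in knockout and 7.75 in wild type on high-fat diet, and at 8.34 and 8.12 on control diet. Both high-fat values lay below both control values, with differences of -0.48 in knockout and -0.36 in wild type and a limma effect of -0.42 (95% interval -0.73 to -0.12, adjusted p 0.417). Neutrophils and monocytes express the gene too, and probes may not separate it from its near-identical copy Lyz1, so its value is uncertain. Ctss, the lysosomal protease cathepsin S that trims the invariant chain, differed with diet by -0.13 in knockout and -0.21 in wild type. Aif1, a macrophage actin-binding protein gene, differed by -0.14 and -0.17, and the galectin gene Lgals3 by -0.06 and -0.13.

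Mrc1, the mannose receptor, went the other way in knockout. It was at 9.18 in knockout and 8.64 in wild type on high-fat diet, and at 8.85 and 8.83 on control diet. The knockout high-fat array was the highest, 1.46-fold above wild type on the same diet. Sinusoidal endothelial cells also make this receptor. Of 13 endothelial markers, 10 were higher and 3 lower in knockout than in wild type on high-fat diet, with a median of 0.06. The share that was lower was 23.1%, against 45.9% of all genes. Across the 4 arrays, 3 of the 13 were highest on the knockout high-fat array, against 4155 of 13308 genes. On the wild-type control array 8 of the 13 were highest, against 3731 of 13308 genes. The part of endothelial cells in the Mrc1 values was not tested. Msr1, a scavenger receptor for modified lipoproteins, was at 6.93 and 6.80 on high-fat diet, and at 6.80 and 6.77 on control diet. It was the only marker above control diet on high-fat diet in both genotypes, by 0.13 in knockout and 0.03 in wild type.

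The C1q chains, which assemble into the recognition unit of the classical complement pathway and are made largely by macrophages, were lower on high-fat diet in both genotypes. C1qa (probe set 17431619) was at 6.76 in knockout and 6.80 in wild type on high-fat diet, and at 7.40 and 7.22 on control diet. C1qb (probe set 17431607) was at 9.03 and 9.05 on high-fat diet, and at 9.41 and 9.31 on control diet. For both chains the 2 high-fat values nearly coincided and lay below both control values. C1qc was at 6.18 and 6.0 on high-fat diet, and at 6.33 and 6.10 on control diet, so its knockout high-fat value lay above its wild-type control value.

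C1qa differed with diet by -0.64 in knockout (1.56-fold lower) and -0.42 in wild type (1.34-fold lower), and its limma effect of -0.53 had a 95% interval from -0.85 to -0.21 and the lowest adjusted p of the markers, 0.364. C1qb differed by -0.37 and -0.26, with a limma effect of -0.32 (95% interval -0.63 to -0.01, adjusted p 0.520). C1qc differed by -0.15 and -0.09. The summed linear level of the 3 chains was 704 in knockout and 705 in wild type on high-fat diet, against 928 and 854 on control diet. Knockout and wild type differed by at most 0.23 for any chain on either diet. The C1q genes neighbour each other on chromosome 4 (RefSeq, GRCm38.p6).

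Upstream sequences are shown for C1qb and C1qc, neighbouring genes of the family just described, and for Marco and Fcgr1, which had the largest differences between arrays. Each is the 250 bases before the RefSeq start on the gene's strand, 5′ to 3′ (GRCm38.p6), and capitals mark GAGGAA or its reverse complement TTCCTC, a core sequence that PU.1 can bind. C1qb spans chr4:136886201-136886450, C1qc chr4:136892915-136893164, Marco chr1:120505025-120505274 and Fcgr1 chr3:96293970-96294219, all on the minus strand.
C1qb: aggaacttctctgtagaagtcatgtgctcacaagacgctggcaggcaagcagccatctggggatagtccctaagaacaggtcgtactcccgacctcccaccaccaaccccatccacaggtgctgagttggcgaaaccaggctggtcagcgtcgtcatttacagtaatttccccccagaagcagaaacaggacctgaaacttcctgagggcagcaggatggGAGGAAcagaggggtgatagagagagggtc
C1qc: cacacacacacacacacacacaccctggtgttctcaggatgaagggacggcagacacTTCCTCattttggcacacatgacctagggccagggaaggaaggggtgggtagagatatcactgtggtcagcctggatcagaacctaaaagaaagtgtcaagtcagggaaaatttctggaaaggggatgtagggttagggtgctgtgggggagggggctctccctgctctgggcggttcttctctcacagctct
Marco: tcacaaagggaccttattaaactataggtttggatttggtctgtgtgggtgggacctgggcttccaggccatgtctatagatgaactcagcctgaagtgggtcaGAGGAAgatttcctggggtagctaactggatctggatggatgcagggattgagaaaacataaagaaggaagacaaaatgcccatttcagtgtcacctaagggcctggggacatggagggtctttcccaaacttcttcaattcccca
Fcgr1: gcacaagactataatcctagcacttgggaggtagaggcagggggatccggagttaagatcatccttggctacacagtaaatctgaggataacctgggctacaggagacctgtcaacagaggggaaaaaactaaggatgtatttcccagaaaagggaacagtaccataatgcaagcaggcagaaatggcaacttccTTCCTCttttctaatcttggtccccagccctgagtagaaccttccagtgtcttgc
Each of the 4 held 1 match. RefSeq promoters were found for 25 of the 34 markers, and 13 of those 25 genes (52%) had a match on either strand in at least 1 such window, against 25.9% of 27025 genes. TGCTGA, a core of the sequence that MAF factors bind, was found for 8 of the 25, against 18% of genes, the AP-1 site TGAGTCA for 3, against 5.16%, and CACGTG, the E-box of TFE factors, for 0, against 6.86%. A match is a description of letters and not of binding.

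The receptors for microbial products and antibodies included the member with the largest genotype difference on high-fat diet. Fcgr1 (probe set 17408024), the high-affinity receptor for IgG, was at 5.44 in knockout and 4.70 in wild type on high-fat diet, and at 5.29 and 5.44 on control diet. The wild-type high-fat array stood alone below the other 3. The diet difference was 0.15 in knockout and -0.73 in wild type (1.66-fold lower), and the genotype difference on high-fat diet was 0.74 (1.66-fold higher in knockout). Ly86, which encodes MD-1, a secreted partner of the Toll-like receptor homologue RP105, had the same pattern. It was at 7.43 and 6.81 on high-fat diet, and at 7.33 and 7.26 on control diet, and was 1.54-fold higher in knockout on high-fat diet. Limma's genotype effect was 0.35 for Ly86 (95% interval -0.07 to 0.76, adjusted p 0.975). The wild-type high-fat array, on which both genes were lowest, was the lowest for 18 of the 32 kept markers, against 3746 of 13308 genes. It is also the one with the most muscle RNA, whose part in these values was not tested. The diet difference in wild type and the genotype difference on high-fat diet share that array.

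Fcgr3, a low-affinity IgG receptor, was at 4.81 in knockout and 4.60 in wild type on high-fat diet, and at 4.74 and 4.81 on control diet. Its extracellular part is nearly identical to that of Fcgr2b, which sinusoidal endothelium expresses, so its value is uncertain. Fcer1g, the signalling chain that Fc receptors share, was at 6.74 and 6.68 on high-fat diet, and at 6.95 and 7.06 on control diet. Both high-fat values were the lower ones. Tyrobp, the adaptor DAP12 that signals for Trem2, was at 5.17 and 5.31 on high-fat diet, and at 5.20 and 5.10 on control diet, and differed by at most 0.21 between any 2 arrays. Cd14, the lipopolysaccharide co-receptor that hands its ligand to the MyD88-dependent receptor Tlr4, was at 4.01 and 4.03 on high-fat diet, and at 4.25 and 4.16 on control diet. Its diet differences were -0.24 in knockout and -0.13 in wild type.

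Markers of monocytes and recruited cells were dim, and their ranges over the 4 arrays lay between 0.08 for Ccr2 and 0.30 for Itgam, against a median range of 0.31 for all genes. Ccr2, the chemokine receptor with which monocytes leave the marrow, was at 3.35 in knockout and 3.41 in wild type on high-fat diet, and at 3.43 and 3.36 on control diet. Itgam, the integrin CD11b, was at 3.28 and 3.44 on high-fat diet, and at 3.33 and 3.58 on control diet. Both lay below the filter, and how far they stood above background is not known. Itgax, the integrin CD11c, ranged over 0.14, and Cx3cr1, the fractalkine receptor, was at 3.94 and 4.14 on high-fat diet, and at 4.14 and 4.20 on control diet.

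The lipid-associated macrophage markers were dim as well, and no pair of arrays compared here differed by more than 0.18 for either. Trem2, a lipid-sensing receptor, was at 3.93 in knockout and 3.87 in wild type on high-fat diet, and at 3.99 and 3.98 on control diet. Gpnmb, a lysosomal membrane glycoprotein gene, was at 3.70 and 3.51 on high-fat diet, and at 3.56 and 3.60 on control diet. Limma's diet effect was -0.08 for Trem2 (95% interval -0.38 to 0.22) and 0.02 for Gpnmb (95% interval -0.30 to 0.35). Both intervals come from how far the diet differences of the 2 genotypes disagree and from the spread shared over genes. They hold no spread between replicate pools or between mice. RMA also narrows the differences of faint probe sets, so the intervals cannot exclude a change of 2-fold.

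Other genes of macrophage biology were read from lists of transcription factors, niche ligands, scavenging, the lipid-associated programme, monocyte entry and activation. Of all 13308 genes 0 passed limma's test for diet or genotype. That 0 genes of these lists passed it is therefore nothing particular to them. Of 10 Kupffer cell transcription factors on the array 9 were kept. Lower on high-fat diet were 4 (44.4%) in knockout and 5 (55.6%) in wild type, near the 47.7% and 55% of all genes. Id3, an inhibitor of differentiation required for Kupffer cell development in mice, was the furthest apart, at 4.91 in knockout and 5.01 in wild type on high-fat diet, against 5.42 and 5.78 on control diet. Maf, a factor that restrains macrophage proliferation, lay above its control-diet values in each genotype, at 6.97 and 6.93 on high-fat diet, against 6.66 and 6.58 on control diet. Csf1, the growth factor that binds Csf1r, was at 4.46 and 4.89 on high-fat diet, and at 4.76 and 4.45 on control diet.

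Of the 15 scavenging and efferocytosis genes kept, 6 (40%) were lower on high-fat diet in knockout and 11 (73.3%) in wild type. The shares of all genes were 47.7% and 55%. The medians of the list were 0.06 and -0.25, against 0.01 and -0.03 for all genes. Hmox1, the haem oxygenase through which Kupffer cells recycle haem, was at 5.26 in knockout and 5.23 in wild type on high-fat diet, and at 5.16 and 6.03 on control diet. Like Adgre1, it was high on the wild-type control array alone. Gas6, a bridging ligand of the receptors Axl and Mertk, was at 6.07 and 5.62 on high-fat diet, and at 6.36 and 6.41 on control diet. Cd36, a fatty acid and oxidised lipoprotein receptor that hepatocytes also express, differed with diet by 0.90 in knockout and -0.48 in wild type.

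The 15 kept genes of the lipid-associated programme had medians of 0.03 in knockout and -0.28 in wild type, against 0.01 and -0.03 for all genes. Lower on high-fat diet were 7 (46.7%) and 11 (73.3%), against 47.7% and 55% of all genes. The marker Itgax is also on this list. Cd9, a tetraspanin gene, was at 6.61 and 6.16 on high-fat diet, and at 7.17 and 7.38 on control diet. Fabp4, a fatty acid binding protein gene, had its higher values with the high-fat diet in each genotype, at 7.07 and 6.43 on high-fat diet, and at 6.31 and 6.10 on control diet. Fabp5, of the same family, had the largest difference of the list, -2.85 for diet in knockout. It was at 5.82 and 5.73 on high-fat diet, and at 8.67 and 6.63 on control diet, so the knockout control array stood far above the other 3. Adipocytes and epithelia also express these fatty acid binding proteins. Of the 16 genes of monocyte entry 7 were kept, with medians of -0.04 in knockout and 0.01 in wild type, against 0.01 and -0.03 for all genes. Of the 12 activation products 4 were kept; Il1b was at 5.40 and 5.61 on high-fat diet, and at 5.29 and 5.06 on control diet, and Tnf, Il6, Il10 and Nos2 lay below the filter.

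Markers of other liver cells were compared on the same arrays. The 13 sinusoidal endothelial markers had a median diet difference of 0.03 in knockout and -0.18 in wild type, the wild-type value close to the -0.19 of the macrophage markers. The 12 hepatocyte markers had medians of -0.03 and -0.04, and the 12 stellate cell markers 0.15 and -0.01. The dendritic cell markers, of a related myeloid lineage, had lower medians than the macrophage markers: -0.39 in knockout and -0.23 in wild type. On high-fat diet 4 of 4 kept genes were lower in knockout and 3 of 4 in wild type, against 47.7% and 55% of all genes. Ccr7 was the exception, 0.57 higher in wild type. Ccr7, Zbtb46 and Siglech were dim, with no value above 4.18 against a filter of 3.47, and the medians rest largely on them. The dendritic cell list held 10 genes, of which 9 were on the array and 4 were kept. Among them Cd209a, a C-type lectin gene, was at 6.30 in knockout and 7.01 in wild type on high-fat diet, and at 7.24 and 7.12 on control diet. Only 3 of 13 neutrophil markers, 4 of 9 B and plasma cell markers and 6 of 14 T and NK cell markers passed the filter on dim genes. The median diet difference of the pancreas transcripts was 1.06 in knockout and 2.22 in wild type, and that of the muscle transcripts -0.05 and 1.21. The differences between cell types were not tested.

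**Figure D4:**
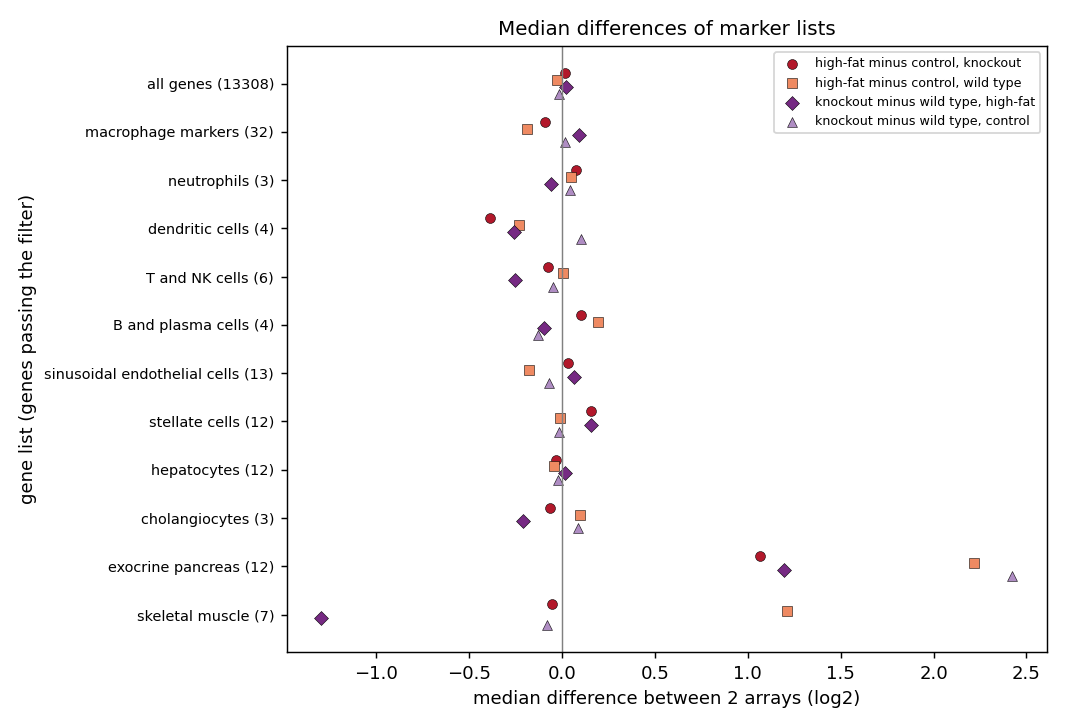
Median log2 difference between 2 arrays for the macrophage markers, all genes and lists of other cell types, with the number of kept genes in parentheses and 1 symbol for each difference. The macrophage markers lie at -0.19 for diet in wild type, beside the sinusoidal endothelial list at -0.18, while the pancreas list reaches 2.42 and the muscle list -1.30.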

How the data were processed

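Liver RNA was profiled on Affymetrix arrays, 1 per genotype and diet. Per the submitters' processing notes, the authors made the deposited log2 values with RMA in Affymetrix Expression Console (version not given in the sources used here), which corrects background, normalises by quantiles and summarises probes. No scanner files or detection calls were used, so how far each signal stood above background is not known.

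Of 41345 probe sets, 23521 had 1 symbol and were used; 1814 with several and 16010 with none were left out. The probe set with the highest mean stood for a symbol, and genes below the 40th percentile of mean log2 were left out of counts and fits. Differences are subtractions of log2 values between single arrays. Diet and genotype were fitted additively with limma 3.58.1 (R 4.3.3) on 13308 genes, with eBayes and Benjamini-Hochberg adjustment over all of them; the code was tested on simulated data. Its error comes from how far the diet differences of the 2 genotypes disagree and from the spread shared over genes. No group had a replicate pool, so its p-values do not measure spread between pools or mice. Alternatives were no filter, a 60th percentile filter, cyclic loess, median centring, mean probe sets and an eBayes trend. The members and lists were chosen with earlier results of these data known. All 34 members could be named, and up to 4 genes of each other list, those with the largest differences; those named outside this rule (Tnf, Il6, Il10 and Nos2) were chosen after their values were seen. Python 3.11.15, pandas 2.3.3, NumPy 2.4.6 and matplotlib 3.10.9 were used otherwise.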

Additional observations from a re-analysis of the deposited data

Results flagged for a closer look

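Marco had opposite diet differences in the 2 genotypes, each past 0.32 on the log2 scale: 0.39 in knockout and -0.72 in wild type, which differ by 1.11. Each comes from 1 pair of pooled arrays, and the difference between them was not tested. It was the 1 marker of 32 with this pattern. The share of all genes with this pattern was not counted, so whether 1 of 32 is unusual is not known.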

How the results depend on the processing

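Under the 2 filters, cyclic loess and median centring, the median diet difference of the markers lay between -0.11 and -0.08 in knockout and between -0.26 and -0.14 in wild type. The median genotype difference lay between 0.06 and 0.12 on high-fat diet and between 0.01 and 0.06 on control diet, against 0.02 as reported. The median difference of the diet differences was 0.07, and lay between 0.01 and 0.10. The 2 smallest medians thus depend on the scaling. Limma called 0 markers for diet and 0 for genotype under these settings and the eBayes trend. Averaging probe sets could not move a marker, since each has 1. Counts past a log2 difference of 0.32 moved more than 1.5 times in 3 cases. After cyclic loess, wild type had 7 in place of 11 markers that far below control diet, and knockout had 1 in place of 2 that far above it; this second count was also 1 after median centring. The cause was not tested. Of 128 single differences, 3 changed sign after cyclic loess and 2 after median centring, 0 of them past 0.32, and the largest shift was 0.07. No paired analysis was possible because each group had 1 array. For the same reason no array could be left out of a difference, so the arrays rich in pancreas or muscle RNA stand in every value. The number of arrays limits the precision.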
